A study of Homo sapiens with 19 samples.

Results

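The genes described are those that encode the proteins of the cytoplasmic ribosome. A gene was a member when it is protein-coding and its symbol is RPL or RPS with a number and at most a short suffix, or is RPLP0, RPLP1, RPLP2, RPSA, RACK1 or FAU, with pseudogenes left out. Names alone chose the members, and no measured value was used. Of the 44717 gene identifiers listed in the count tables, 87 met this rule. They comprised 46 proteins of the large subunit, 32 of the small subunit, the scaffold protein RACK1 that sits on the small subunit, and 8 paralogs of other members (RPL3L, RPL7L1, RPL10L, RPL22L1, RPL26L1, RPL39L, RPS27L and a Y-linked copy of RPS4X). The Y-linked member was counted with the others, and its values are not given.

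The small subunit of the ribosome reads the mRNA and the large subunit joins amino acids, and the proteins of both are needed in nearly equal numbers of copies. The mRNAs of ribosomal proteins and of several translation factors start with a C followed by a run of pyrimidines, the terminal oligopyrimidine (TOP) tract, through which the kinase mTORC1 and the protein LARP1 set their translation and stability. Their transcription rises with growth signals and with MYC. In pigment cells MITF is the transcription factor of the lineage, and BRG1, the product of SMARCA4, is an ATPase of the SWI/SNF chromatin remodelling complexes.

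Total RNA-seq was read in 19 samples of 501Mel, an established human melanoma line, and of Hermes 3A, an untransformed line of human melanocytes grown with TPA, cholera toxin, stem cell factor and endothelin-1. All samples, controls included, were infected with lentiviral shRNA vectors, with 1 construct against BRG1 and 1 against MITF, so that effects of a construct on other mRNAs cannot be told apart from those of its target. 501Mel cells carried shSCR1 (3 samples), shBRG1 (3), shSCR2 (2) or shMITF (2), and Hermes 3A cells carried shSCR, shBRG1 or shMITF (3 each), where SCR is a scramble control. The series' design text gives shSCR2 as the control of shMITF, which leaves shSCR1 as that of shBRG1. Any difference between the shSCR1 and shSCR2 vectors, the time after infection and whether replicates came from separate cultures are not given in the sources used here, and p-values measure only the spread between these samples. In such bulk samples fewer cells of a kind and less RNA per cell cannot be told apart.

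The counts of a sample summed to 29158502 at the least and 78857900 at the most. The 7 melanocyte lineage markers PMEL, MLANA, TYR, TYRP1, DCT, SOX10 and MITF were all above 1 CPM, counts scaled to a common library size, in every group. Their summed level, scaled over all samples, ran from 3891 to 4310 CPM in 501Mel shBRG1 samples and from 11978 to 55765 CPM in the other groups. Of 5 fibroblast markers 1 or 2 passed 1 CPM in each group, with sums of 3.09 to 24.2 CPM that were highest in 501Mel shBRG1 samples, and of 5 keratinocyte markers 1 passed it in each group. The part of these shifts in the results was not tested. No 2 libraries held the same counts. Hermes 3A shMITF replicate 1 stood apart, and results that rest on it are given with and without it.

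Ribosomal protein genes took between 2.64% and 3.96% of all counts in the 19 samples. In 501Mel cells they took 2.64%, 2.86% and 2.80% with shSCR1, and 3.19%, 3.22% and 3.03% with shBRG1, and the groups did not overlap. They took 3.31% and 3.25% with shSCR2, and 3.14% and 3.06% with shMITF. The shSCR2 control thus lay above the shSCR1 control by more than shBRG1 did. In Hermes 3A cells the shares were 2.98%, 3.04% and 2.98% with shSCR and 2.84%, 2.87% and 2.72% with shBRG1, which lay below them. With shMITF in Hermes 3A cells they were 3.96%, 2.92% and 2.97%, so that 1 sample lay above the controls and the other two below. The counting error of each share (95% Wilson interval) was at most 0.00623 percentage points on either side and covers counting error only. Reads on mitochondrial genes, which enter the same totals, took 10.4% to 11.4% with shBRG1 and 6.81% to 7.61% with shSCR1 in 501Mel cells, and their part in the difference of shares was not tested. A step with a duplex-specific nuclease lowered abundant cDNAs in these libraries, so shares are not those of the cell.

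**Figure D1:**
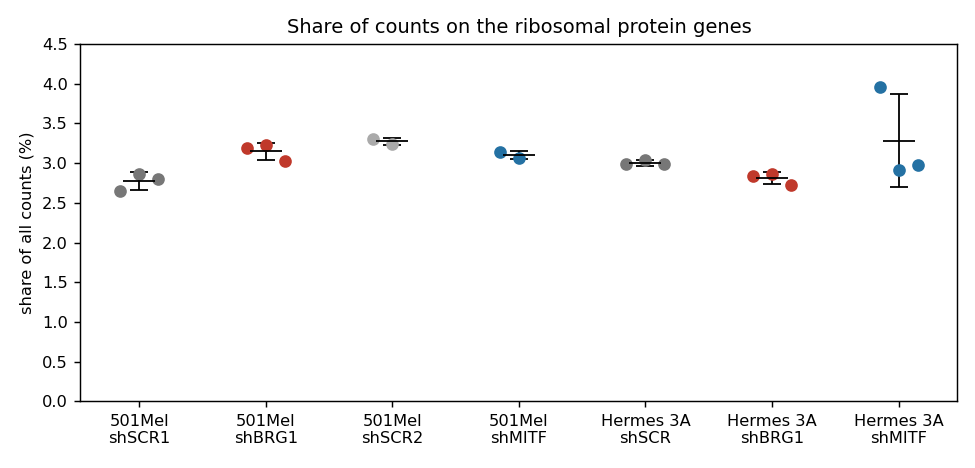
Share of all counts on the 87 ribosomal protein genes (y axis, percent) in each of the 19 samples (points) by group (x axis), with the group mean and SD (bars). The samples lay between 2.64% and 3.96%, with Hermes 3A shMITF replicate 1 highest.

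The starts of the genes that carry the results below are shown because the TOP tract is the sequence that ribosomal protein genes share. Each line holds 12 bases before and 18 bases from a start listed in RefSeq (GRCh38.p14), on the strand of the gene, 5′ to 3′, and capitals mark a C at the first base followed by at least 4 pyrimidines. RPS27A has 3 listed starts, of which only the start printed holds such a tract. The first 7 hold such a tract, and the last 4 do not.
RPS24: cgaatcgtggttCTCTTTTCCTCCTTggct
RPLP0: cgggcgcgaggcCCTTCTCTCgccaggcgt
RPSA: cctgccgcctgtCTTTTCCgtgctacctgc
RPS27A: gcggcgttcttcCTTTTCgatccgccatct
RPL12: cgcgatttccggCCTCTCggctttcggctc
RPL22: ttcgctcacctcCCTTTCTaactccgctgc
RPL22L1: ggccgtagcttcCTCTCTgctctcgcggcc
RPL3: aggccgaccggcctctaccggcgggatttg
RPL10A: gcaagacatgctagtctcttttccggttag
RPS4X: gtctccagccccaatttctacgcgcaccgg
RPS27L: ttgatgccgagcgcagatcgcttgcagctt
The windows lie at chr10:78033851-78033880 (plus strand), chr12:120201094-120201123 (minus strand), chr3:39406708-39406737 (plus strand), chr2:55232676-55232705 (plus strand), chr9:127451389-127451418 (minus strand), chr1:6199578-6199607 (minus strand), chr3:170870178-170870207 (minus strand), chr22:39319606-39319635 (minus strand), chr6:35468389-35468418 (plus strand), chrX:72277231-72277260 (minus strand) and chr15:63157460-63157489 (minus strand), in the order of the lines. Of 70 members with a start in the RefSeq table, 50 (71.4%) held the tract at a listed start, against 988 of 15843 protein-coding genes (6.24%). For 17 members no start was listed. A tract that begins within 10 bases of a listed start was present in 61 of the 70 members (87.1%) and in 41.1% of all genes, and RPL3 and RPL10A hold one of that kind.

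In the 250 bases before and 50 after the same starts, the letters CCGGAAG, searched on both strands, stood in 24 of the 70 members (34.3%) and in 16.5% of all protein-coding genes in the table. The letters CACGTG, which MYC and MITF can bind, stood in 5 members (7.14%) and in 10.9% of genes, and CATGTG in 5 members and 11.5% of genes. TATAAA stood in 7 members (10.0%) and in 12.4% of genes. These matches are descriptions of the windows, and a match of 1 of these motifs cannot share letters with a match of another. With shBRG1 the medians of the log2 fold change of members with the TOP tract at a listed start and of those without it were 0.03 (50 members) and 0.11 (19 members) in 501Mel cells, and -0.18 and -0.19 in Hermes 3A cells.

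Ribosomal protein genes have many processed copies in the genome, and 1339 listed pseudogenes bore the name of a member. Together those pseudogenes took 0.02% to 0.05% of counts. For each member the stretches of 50 bases of its coding sequence that recur elsewhere in the reference transcripts or pseudogenes were counted. In 15 members at least 90% of the stretches recurred, among them RPL21, RPS26, RPL36A, RPL7 and RPL9. Their levels per length of coding sequence ranged widely, and 12 of the 14 with a level were below the median of 84 members, 595 CPM per kilobase in 501Mel shSCR1 samples. RPL21 had 19.3 ± 0.80 CPM per kilobase and RPS26 16.8 ± 0.34 (SD, n = 3). RPL41 and RPL39, which share all their stretches but have only 75 and 153 coding bases, had 1793 ± 93.5 and 1657 ± 89.3. How the authors' counting placed reads that match several genes is not given in the sources used here, so levels of these members are uncertain.

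Levels per kilobase of coding sequence, scaled over all samples, also ranged widely over the members as a whole. Counts over whole genes were divided by coding length alone, so untranslated parts can raise the values of members with short coding sequences. In Hermes 3A shSCR samples 51 of 84 members were within a factor of 2 of the median of 809 CPM per kilobase, and in 501Mel shSCR1 samples 43 of 84. RPL41, whose protein is the shortest of the ribosome, was highest in Hermes 3A shSCR samples with 3544 ± 26.8 CPM per kilobase (SD, n = 3). That level is uncertain, since its stretches recur elsewhere and its counts were divided by only 75 coding bases. RPL37, a large subunit protein, was highest in 501Mel shSCR1 samples with 2652 ± 65.0. Lowest in both was RPL3L, the muscle form of RPL3, with 0.498 and 0.0651 CPM per kilobase. RPL10L, a paralog of RPL10, had 0 to 11 counts in all samples. Across 84 members the levels in 501Mel shSCR1 and Hermes 3A shSCR samples had a correlation of r = 0.96 on the log scale, as a description. RPS27L, a paralog of RPS27, stood apart with 132 ± 1.46 CPM per kilobase in 501Mel shSCR1 and 1050.0 ± 54.2 in Hermes 3A shSCR samples.

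The targeted genes were checked first, each comparison scaled by itself. With shBRG1 in 501Mel cells SMARCA4, the gene of BRG1, had 207, 226 and 217 CPM with shSCR1 and 41.6, 45.3 and 40.1 CPM with shBRG1. In Hermes 3A cells it had 218, 231 and 204 CPM with shSCR and 40.0, 41.9 and 43.4 CPM with shBRG1. The log2 fold changes were -2.36 ± 0.05 and -2.38 ± 0.05 (SE). MITF had 1037 and 1154 CPM with shSCR2 and 489 and 562 CPM with shMITF in 501Mel cells. In Hermes 3A cells MITF had 901, 938 and 996 CPM with shSCR and 414, 660.4 and 494 CPM with shMITF. The log2 fold changes of MITF were -1.06 ± 0.14 and -0.85 ± 0.19, and the weakest reduction was in shMITF replicate 2 of Hermes 3A cells. MITF also fell with shBRG1, by 1.55 on the log2 scale in 501Mel and by 0.43 in Hermes 3A cells. No groups overlapped for a targeted gene in its own knockdown. The call of MITF in Hermes 3A cells was lost without any 1 shSCR replicate and without shMITF replicate 3.

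Before the knockdowns, the 2 scramble groups of 501Mel cells were compared, since each serves as a control. Ribosomal protein genes were higher with shSCR2 than with shSCR1: of 85 members tested 60 were higher and 7 lower at an adjusted p under 0.05 (edgeR's quasi-likelihood test), where 35.3% of all 19056 genes were called higher and 34.5% lower. The median log2 fold change of the members was 0.44, beside -0.03 over all genes. RPLP0, the base of the stalk to which elongation factors bind, had 235, 283 and 271 CPM with shSCR1 and 799 and 782 CPM with shSCR2. RPSA, a small subunit protein also known as a laminin receptor, had 81.4, 89.6 and 86.4 CPM with shSCR1 and 213 and 206 CPM with shSCR2. RPS27A, made as a fusion of ubiquitin with a small subunit protein, had 98.5, 105 and 106 CPM with shSCR1 and 233 and 209.9 CPM with shSCR2. The groups did not overlap for any of the 3, and the log2 differences were 1.59 ± 0.08, 1.29 ± 0.07 and 1.10 ± 0.07. In the same order, 65.5%, 87.6% and 80.4% of their stretches recur elsewhere. RPL19 and RPL10A, both large subunit proteins, differed between the scramble groups by only 0.02 ± 0.07 and 0.02 ± 0.06, with overlapping groups.

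Of the genes of ribosome assembly, 36 of 39 tested were higher with shSCR2 than with shSCR1 and 1 was lower, with a median of 0.96. MYC, a transcription factor that drives ribosome production, had 30.5, 42.9 and 40.7 CPM with shSCR1 and 108 and 102 CPM with shSCR2. Nucleolar NCL and NPM1 differed by 1.34 ± 0.08 and 1.53 ± 0.08. MITF and SMARCA4 themselves were higher with shSCR2, by 0.97 ± 0.09 and 0.83 ± 0.06. For MITF this was close in size to its fall with shMITF against shSCR2, given above. The member counts of both 501Mel knockdowns are therefore given against both scramble groups. The comparison of a knockdown with the other scramble group was added after the data were seen.

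**Figure D2:**
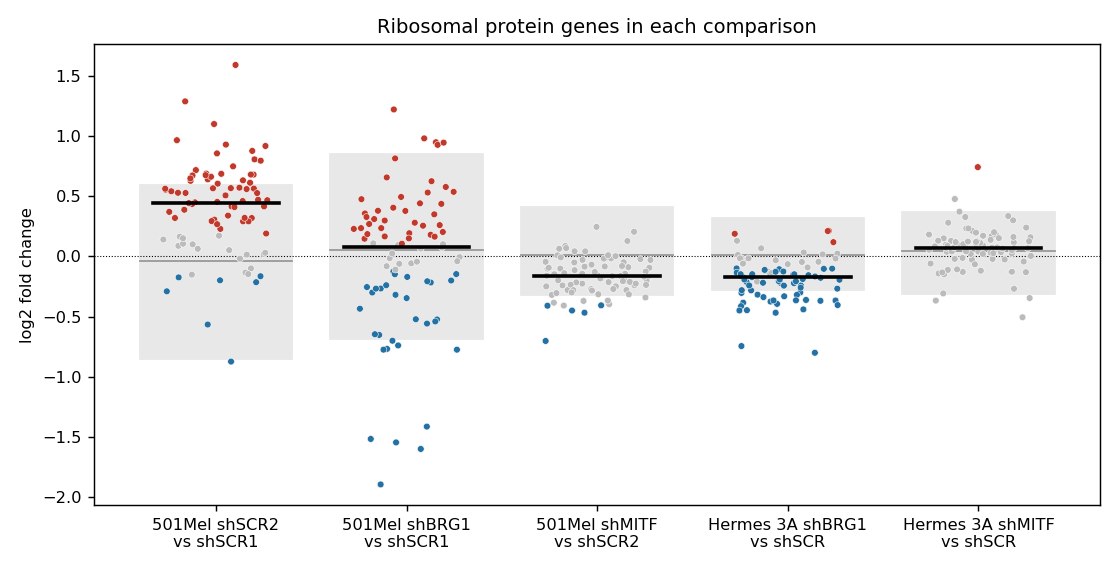
Log2 fold change (y axis) of each ribosomal protein gene tested (points) in 5 comparisons (x axis), red for higher and blue for lower at an adjusted p under 0.05, grey for neither. Black lines are member medians, 0.44, 0.07, -0.16, -0.17 and 0.07 from left to right, and grey boxes span the quartiles of all genes tested with their median as a line. The Y-linked member is not drawn.

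Silencing of BRG1 in 501Mel cells left ribosomal protein genes split, with a few large falls. Against shSCR1, of 85 members tested 39 rose and 31 fell at an adjusted p under 0.05. That is 45.9% and 36.5% of them, where 41.2% of all 20514 genes tested rose and 39.1% fell. The median log2 fold change was 0.07, beside 0.05 over all genes. Among protein-coding genes only, scaled and tested by themselves, 48 members rose and 21 fell (56.5% and 24.7%), where 42.9% of 14518 genes rose and 42.0% fell, and the median was 0.23 beside 0.02. Scaled by library sizes rather than by TMM factors, 61 rose and 16 fell (71.8% and 18.8%), where 55.1% and 28.5% of all genes did. The members were more tightly placed than other genes, with quartiles of -0.27 and 0.31 beside -0.69 and 0.85. Large and small subunit did not part: 21 rose and 18 fell of 46 in the first, and 15 rose and 12 fell of 31 in the second. Of all 20514 genes tested, 4453 were called with a log2 fold change over 1 and 3571 with one under -1. Only 6 members passed an absolute log2 fold change of 1, 5 of them downward.

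Among these 5 were RPL3, RPL19, RPS24 and RPL10A. RPL3, which lies near the site where peptide bonds form, had 979, 1095 and 1051 CPM with shSCR1 and 267, 301 and 274 CPM with shBRG1. RPL19, which takes part in a bridge between the subunits, had 819, 898 and 869.9 CPM with shSCR1 and 279, 294 and 282 CPM with shBRG1. RPS24, a small subunit protein whose loss causes Diamond-Blackfan anaemia, had 528, 565 and 565 CPM with shSCR1 and 188, 192 and 189 CPM with shBRG1. In each of these the knockdown samples were far below all controls. RPL10A, the protein of the L1 stalk where used tRNA leaves, had 368, 395 and 388 CPM with shSCR1 and 133, 144 and 126 CPM with shBRG1. Again no samples overlapped. The log2 fold changes were -1.89 ± 0.06 for RPL3, -1.60 ± 0.05 for RPL19, -1.54 ± 0.05 for RPS24 and -1.51 ± 0.05 for RPL10A. Against shSCR2 they were -2.12 ± 0.08, -1.61 ± 0.07, -2.11 ± 0.07 and -1.54 ± 0.08, in the same order. None of these 4 overlaps another annotated protein-coding or long non-coding gene on either strand, and at most 48.5% of their stretches of coding sequence recur elsewhere. At their listed starts RPS24 carries a TOP tract of 14 bases and RPL3 and RPL10A none, as printed above.

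In GENCODE 29 on GRCh38, RPL3 (ENSG00000100316) lies on chromosome 22 from 39312882 to 39320389 on the minus strand and RPS24 (ENSG00000138326) on chromosome 10 from 78033732 to 78056813 on the plus strand. RPL19 (ENSG00000108298) lies on chromosome 17 from 39200283 to 39204732 and RPL10A (ENSG00000198755) on chromosome 6 from 35468408 to 35470785, both on the plus strand. The values count reads over whole genes.

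The members that rose most against shSCR1 were RPL21, RPL36A, RPL9, RPS26 and RPLP0. RPL21, a large subunit protein, had 10.3, 10.8 and 11.3 CPM with shSCR1 and 25.1, 26.8 and 23.4 CPM with shBRG1. RPL36A, another large subunit protein, had 19.4, 20.1 and 21.2 CPM with shSCR1 and 40.5, 42.1 and 36.9 CPM with shBRG1. No samples overlapped in either, and the log2 fold changes were 1.22 ± 0.07 and 0.98 ± 0.06. RPL9 and RPS26, one from each subunit, rose by 0.95 ± 0.06 and 0.94 ± 0.09. Against shSCR2 the values of RPL9 and RPS26 were 0.33 ± 0.09 and 0.03 ± 0.12, and the call of RPS26 was lost (adjusted p = 0.84 by edgeR's quasi-likelihood test). RPL21 and RPL36A were 0.77 ± 0.10 and 0.64 ± 0.09 with that control. These 4 share at least 90% of their stretches with other copies. Over the 14 members of that kind tested, 11 rose and 3 fell with a median of 0.34, and over the other 71 members 28 rose and 28 fell with a median of -0.01. RPL36A overlaps the read-through gene RPL36A-HNRNPH2 on its own strand, so strand cannot tell the reads of that pair apart. RPL9 overlaps LIAS on the other strand, and reads of those genes cannot be told apart where strand was not used in counting.

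RPLP0 showed the dependence on the control most plainly. It had 274, 334 and 317 CPM with shSCR1 and 591, 599.9 and 565 CPM with shBRG1, and all knockdown samples were above all controls. The log2 fold change was 0.93 ± 0.06 against shSCR1 and -0.66 ± 0.07 against shSCR2, so that its direction turned with the scramble group. RPSA had 95.0, 106 and 101 CPM with shSCR1 and 147, 151 and 139.6 CPM with shBRG1, with log2 fold changes of 0.54 ± 0.05 against shSCR1 and -0.75 ± 0.07 against shSCR2. RPS27A changed by 0.62 ± 0.05 and -0.47 ± 0.07 and RPL11 by 0.40 ± 0.05 and -0.31 ± 0.07. RPL5 and RPL11 bind 5S rRNA together and, when free, the ubiquitin ligase MDM2. RPL5 fell with both controls, with log2 fold changes of -0.65 ± 0.05 and -1.30 ± 0.07.

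**Figure D3:**
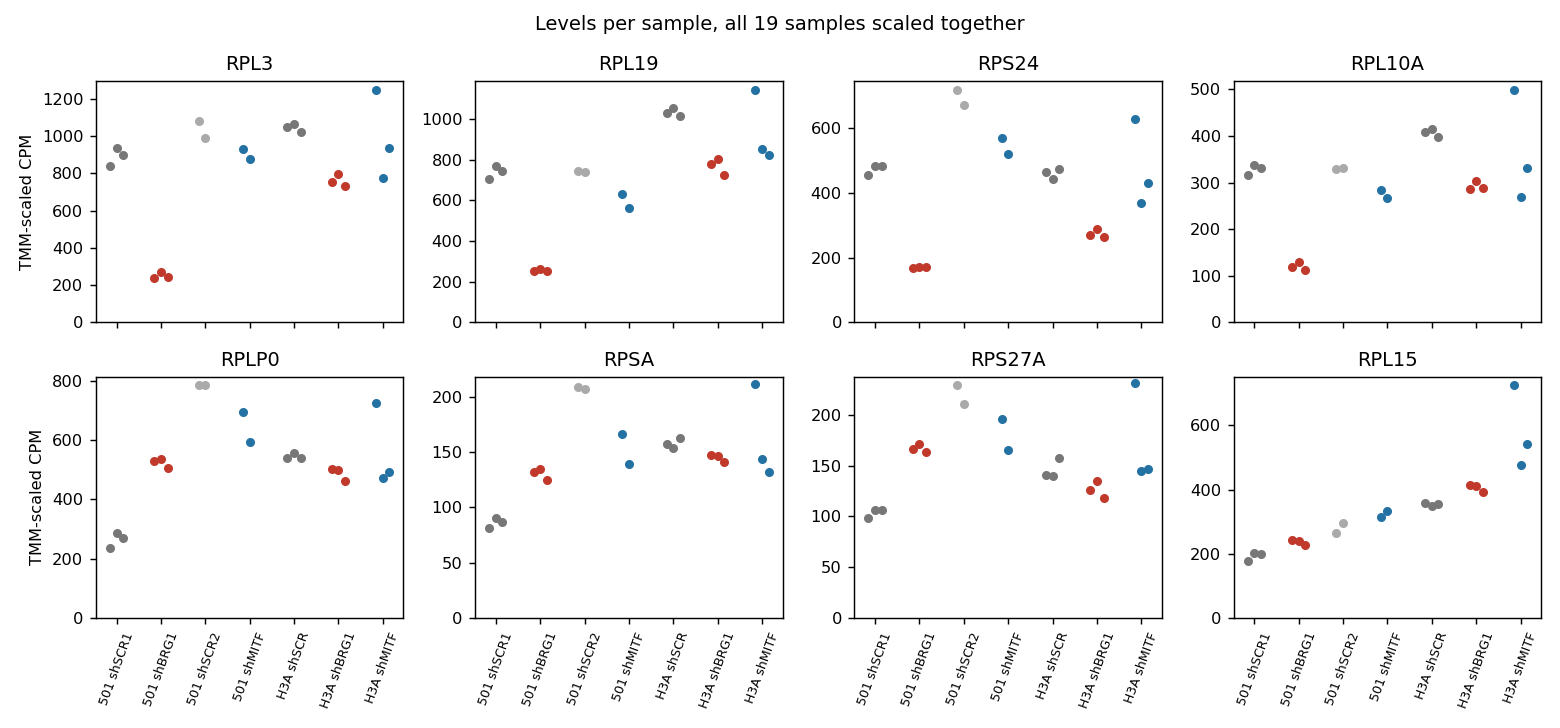
Levels of 8 ribosomal protein genes (y axes, TMM-scaled CPM with all 19 samples scaled together) in each sample (points) of the 7 groups (x axis, 501 for 501Mel, H3A for Hermes 3A). RPL3, RPL19, RPS24 and RPL10A were lowest in 501Mel shBRG1 samples, while for RPLP0, RPSA and RPS27A these samples lay between shSCR1 and shSCR2.

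Over all members, shBRG1 against shSCR2 gave 8 higher and 54 lower of 85 (9.41% and 63.5%), where 42.7% of all 21475 genes were higher and 37.1% lower. The median was -0.36, beside 0.15 over all genes. With shSCR1 the counts were 39 and 31. Of the members called, 27 were lower with both controls, 7 were higher with both, and 16 were higher against shSCR1 and lower against shSCR2. None went from lower to higher. The 7 higher with both were RPL21, RPL36A, RPL37, RPL3L, RPL9, RPS27 and RPS28, and of these 5 (RPL21, RPL36A, RPL9, RPS27 and RPS28) share at least 90% of their stretches. The 27 lower with both included, besides RPL3, RPL19, RPS24 and RPL10A, also RPL4, RPL5, RPL6, RPL12, RPS2, RPS6 and RACK1. RACK1 changed by -0.43 ± 0.05 against shSCR1. RPS6, the small subunit protein that S6 kinase phosphorylates, changed by -0.21 ± 0.05, though it was 0.14 with library sizes alone. Both comparisons share the shBRG1 samples and are not independent.

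Members with other roles changed little or in both directions against shSCR1. RPLP1 and RPLP2, which pair on the stalk with RPLP0, differed by 0.35 ± 0.06 (rose) and -0.04 ± 0.06 (not called). FAU, made as a fusion of a ubiquitin-like protein with a small subunit protein, differed by 0.07 ± 0.05 and was not called. RPS14 and RPS19, small subunit proteins known from 5q deletion anaemia and Diamond-Blackfan anaemia, rose by 0.38 ± 0.05 and 0.30 ± 0.05. RPL13A, a large subunit protein that can leave the ribosome to repress translation, fell to a log2 fold change of -0.30 ± 0.05, though it was 0.05 with library sizes. All 6 were negative against shSCR2. RPL13A, RPS14, FAU and RPLP1 were called lower with that control, at -0.99 ± 0.07, -0.43 ± 0.07, -0.38 ± 0.09 and -0.21 ± 0.07, and RPLP2 and RPS19 were not, at -0.15 ± 0.09 and -0.12 ± 0.07.

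Silencing of BRG1 in Hermes 3A cells lowered most ribosomal protein genes by a small amount when samples were scaled by TMM factors. Of 84 members tested 59 fell and 4 rose, 70.2% and 4.76% of them, where 28.6% of all 17222 genes tested fell and 28.2% rose. The median log2 fold change was -0.17, with quartiles of -0.30 and -0.10, beside a median of 0.01 over all genes. Scaled by library sizes, 35 fell and 10 rose (41.7% and 11.9%), where 21.4% of all genes fell and 37.1% rose. No member passed an absolute log2 fold change of 1, where 996 of all 17222 genes were called past it upward and 598 downward. Both subunits took part, with 32 of 46 large subunit genes and 25 of 31 small subunit genes lower. In a fit that also held the shMITF samples, whose spread was wide, only 5 members were called lower and none higher, where 11.1% of all genes were lower and 10.4% higher, while the median was -0.18.

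RPL22L1 and RPS24 fell most. RPL22L1, the paralog that can replace RPL22 in the large subunit, had 102, 105 and 114 CPM with shSCR and 55.3, 65.3 and 63.1 CPM with shBRG1. RPS24 had 416, 403 and 426 CPM with shSCR and 243, 260.0 and 240.3 CPM with shBRG1. No samples overlapped, and the log2 fold changes were -0.80 ± 0.05 and -0.74 ± 0.04, adjusted p = 2.0e-13 and 4.3e-15 by edgeR's quasi-likelihood test. In the fit with the shMITF samples the adjusted p of RPL22L1 was 0.12 at a log2 fold change of -0.80. RPL3 had 936, 963 and 914 CPM with shSCR and 676, 720.0 and 668 CPM with shBRG1, a log2 fold change of -0.45 ± 0.04. RPL10A also fell, with a log2 fold change of -0.47 ± 0.04, and so did RPS3A, a small subunit protein near the exit of the mRNA, with -0.45 ± 0.05. RPS3A shares 98.9% of its stretches with other copies.

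The 4 members that rose were RPL15, RPL26L1, RPS27L and RPL28. RPL15, a large subunit protein, had 319, 315 and 319 CPM with shSCR and 373, 374 and 358 CPM with shBRG1, a log2 fold change of 0.21 ± 0.04 with no overlap. RPS27L rose by 0.19 ± 0.04 and RPL26L1, a paralog of RPL26, by 0.21 ± 0.07. RPL28, a large subunit protein, rose by 0.12 ± 0.04, and its groups overlapped. RPLP0, RPSA and RPS27A, which turned with the control in 501Mel cells, fell here, with log2 fold changes of -0.15 ± 0.04, -0.11 ± 0.04 and -0.19 ± 0.05. RPS6 and RPL5 fell as well, with -0.34 ± 0.04 and -0.44 ± 0.04. RACK1 and RPLP2 had -0.09 ± 0.04 and -0.06 ± 0.04, and neither was called.

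**Figure D4:**
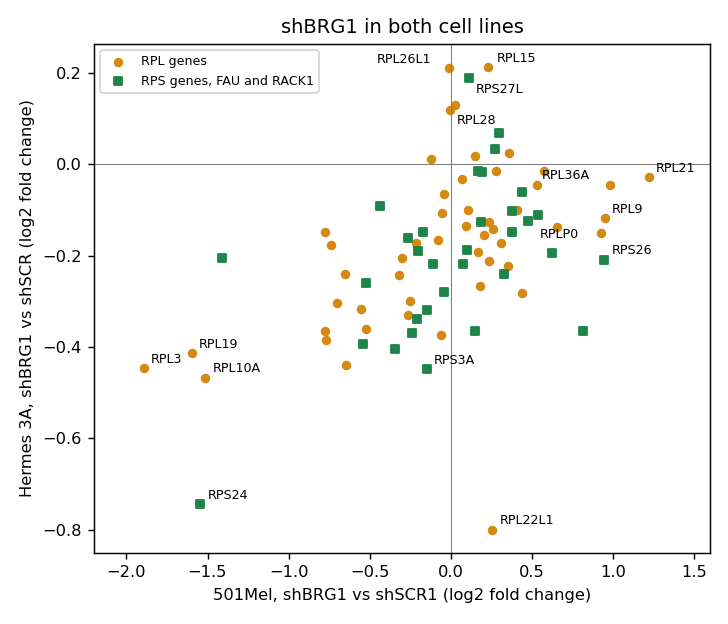
Log2 fold change with shBRG1 in 501Mel cells against shSCR1 (x axis) and in Hermes 3A cells against shSCR (y axis, a narrower scale) for each ribosomal protein gene tested in both (points, with the larger changes named). RPL3, RPL19, RPL10A and RPS24 lay lowest in 501Mel cells and below 0 in Hermes 3A cells, and RPL22L1 lay lowest in Hermes 3A cells but at 0.26 in 501Mel cells.

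The difference between the shBRG1 effects of both cell lines was tested in 1 fit. Of 85 members 43 had a more positive effect in 501Mel cells and 19 a more negative one, where 24.8% of all 21697 genes tested differed in the first direction and 33.1% in the second. Across 83 members the 2 effects, which share no samples, had r = 0.48 and rho = 0.51, as a description over genes that share libraries. RPL3, RPL19 and RPL10A fell further in 501Mel cells, with differences of -1.48 ± 0.07, -1.22 ± 0.07 and -1.08 ± 0.06. RPS24, the second largest fall in Hermes 3A cells, differed by -0.83 ± 0.06. RPL22L1 differed by 1.03 ± 0.08 the other way, being 0.26 ± 0.06 in 501Mel cells against shSCR1. Against shSCR2 it was -0.71 ± 0.10, beside -0.80 ± 0.05 in Hermes 3A cells, and the difference between lines was not tested with that control. RPLP0 differed by 1.05 ± 0.07 and RPS27A by 0.79 ± 0.07 with shSCR1 as the control.

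Silencing of MITF in 501Mel cells changed few ribosomal protein genes past the threshold. Of 85 members tested 5 fell and none rose, 5.88% of them, where 10.5% of all 17701 genes fell and 10.0% rose. The median log2 fold change was -0.16, beside 0.01 over all genes. In Hermes 3A shBRG1 it was close, at -0.17, where 59 of 84 members fell. The estimated coefficient of variation was 17.4% here with 2 samples a group and 5.7% there with 3. Counts of calls in these 2 comparisons therefore do not compare the sizes of the effects. At an unadjusted p under 0.05, 20 members were lower and none higher, and the share of all genes at that threshold is not given. DESeq2 called 10 lower and none higher, where it called 12.3% and 10.5% of all genes, and a fit that held all 4 groups of 501Mel cells called 39 lower and none higher, where 17.8% and 17.0% of all genes were. The 5 that fell were RPL22L1, RPL12, RPS4X, RPSA and RPS2. RPL22L1 had 53.1 and 62.1 CPM with shSCR2 and 35.4 and 35.5 CPM with shMITF. RPS4X, the X-linked copy of a small subunit protein, had 1029 and 1034 CPM with shSCR2 and 745 and 766 CPM with shMITF. RPSA had 207 and 202 CPM with shSCR2 and 165 and 143 CPM with shMITF. The knockdown samples lay below the controls in each. The log2 fold changes were -0.70 ± 0.14, -0.45 ± 0.12 and -0.41 ± 0.12, with adjusted p = 0.0088, 0.030 and 0.045. RPL12, at the base of the stalk, and RPS2, at the mRNA entry, had log2 fold changes of -0.47 ± 0.13 and -0.41 ± 0.12. RPLP0 had -0.25 ± 0.13 and was not called.

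Against shSCR1 instead, shMITF gave 41 members higher and 13 lower (48.2% and 15.3%), where 33.1% of all 19179 genes were higher and 32.3% lower. The median was 0.20, beside -0.02 over all genes. MITF itself was higher with shSCR2 than with shSCR1 by nearly as much as it fell with shMITF, so little of its fall is left in this comparison. None of the 5 was lower there, and RPL22L1, RPS4X and RPSA were higher, by 0.23 ± 0.08, 0.31 ± 0.07 and 0.85 ± 0.08. With both scramble groups pooled no member was called, where 2.34% of all genes were higher and 1.81% lower. Leaving out 1 of the 4 libraries gave between 1 and 8 members lower, with the highest count without shMITF replicate 1.

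Silencing of MITF in Hermes 3A cells gave 1 member past the threshold. Of 84 tested, RPL15 rose and none fell, where 7.85% of all 16508 genes rose and 9.15% fell. At an unadjusted p under 0.05, 2 were higher and 1 lower, with no share of all genes given at that threshold. DESeq2 called 1 higher and 1 lower, where it called 11.3% and 12.3% of all genes. RPL15 had 317, 316 and 317 CPM with shSCR and 659, 438 and 491 CPM with shMITF. All knockdown samples were above all controls, and the log2 fold change was 0.74 ± 0.17 with an adjusted p = 0.023. Without any 1 of the shSCR samples the adjusted p was 0.11 to 0.12. RPL15 also stood among the few that rose with shBRG1 in this line, a comparison that shares the shSCR samples. It overlaps NKIRAS1 on the other strand, and reads of the pair cannot be told apart where strand was not used. Of the stretches of RPL15 80.6% recur elsewhere.

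Replicate 1 of shMITF in Hermes 3A cells had the highest level of its group for 84 of 84 members, with a median of 0.39 above the group mean on the log2 scale. In the samples of the other 6 groups that median lay between -0.08 and 0.06. RPL22L1 had 101, 105 and 113 CPM with shSCR and 127, 35.8 and 61.7 CPM with shMITF, and RPLP0 had 481, 505 and 481 CPM with shSCR and 659, 435 and 447 CPM with shMITF. In both, replicate 1 was above the controls and replicates 2 and 3 below them. Without replicate 1, 11 of 84 members fell (13.1%) and 1 rose (1.19%), where 13.8% of all 16980 genes fell and 11.6% rose, and the median of the members went from 0.07 to -0.16. RPL22L1 was then called, at a log2 fold change of -1.14 and an adjusted p = 0.0093. RPL15 was 0.54 ± 0.09 without it, with an adjusted p = 0.00735, and MITF was -0.72 ± 0.14. Of the other genes named for this comparison below, NOP56, RPTOR and POLR1A were called without it too, and WDR74 was not, at 0.62 ± 0.19 and an adjusted p = 0.0501. MITF itself was lowest of the group in replicate 1, and the cause of the shift was not tested.

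The difference between the shMITF effects of both lines was not past the threshold for any of the 85 members, where 2.16% of all 19284 genes differed upward in 501Mel cells and 0.830% downward. At an unadjusted p under 0.05 none differed upward and 2 downward, with no share of all genes given at that threshold. The median difference was -0.23, beside -0.04 over all genes. Without Hermes 3A shMITF replicate 1 the median difference was -0.04, beside -0.0043 over all genes, and none was called either, where 4.09% and 2.65% of all genes were. Across 83 members the 2 effects had r = 0.61 and rho = 0.44, as a description, and r = 0.61 and rho = 0.42 without that sample.

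Paralogs were set against their parents as the ratio of counts within a library, which no scaling can move. RPL22L1 to RPL22 was 0.567 to 0.630 in Hermes 3A shSCR samples and 0.370 to 0.430 with shBRG1, a log2 difference of -0.54. In 501Mel cells it was 0.197 to 0.203 with shSCR1 and 0.202 to 0.220 with shBRG1, with overlap. It was 0.224 to 0.273 with shSCR2 and 0.151 to 0.159 with shMITF, a log2 difference of -0.67. In their controls all melanocyte samples lay above all melanoma samples.

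RPS27L to RPS27 was 1.83 to 2.03 in Hermes 3A shSCR samples, 2.56 to 2.72 with shBRG1 and 2.21 to 2.73 with shMITF. In 501Mel cells it was 0.294 to 0.318 with shSCR1 and 0.256 to 0.274 with shBRG1, but 0.422 to 0.539 with shSCR2. The scramble groups thus differed by 0.64 on the log2 scale, and shBRG1 from shSCR1 by -0.22. RPL26L1 to RPL26 was 0.131 to 0.144 with shSCR in Hermes 3A cells and 0.166 to 0.185 with shBRG1. In 501Mel cells this ratio was 0.111 to 0.125 with shSCR1, 0.128 to 0.142 with shSCR2 and 0.0918 to 0.103 with shBRG1. RPL39L to RPL39 was below 0.10 in every sample, and RPL7L1 was above RPL7 in every sample, with RPL7 among the members whose reads recur elsewhere. In 25 two-sided exact permutation tests over samples the smallest p was 0.1, the least that 3 against 3 samples can give. By the same test 3 against 2 samples cannot go below 0.2, and 2 against 2 cannot go below 0.33. The smallest Benjamini-Hochberg adjusted p was 0.25. The parents RPL22 and RPS27 share at least 90% of their stretches with other copies.

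**Figure D5:**
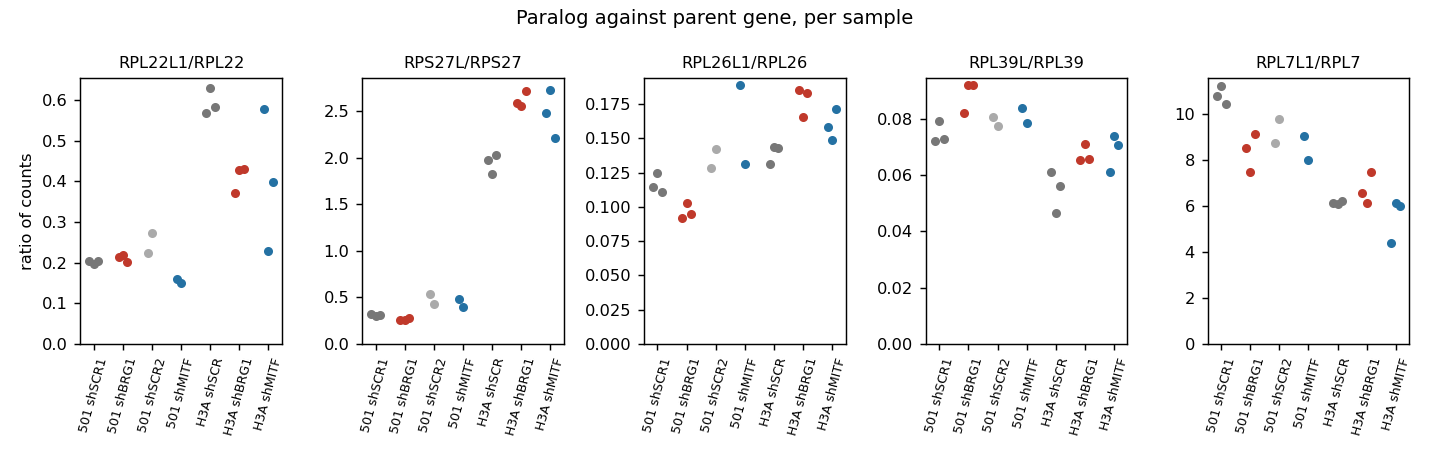
Ratio of counts of 5 paralogs to their parent genes (y axes) in each sample (points) of the 7 groups (x axis, 501 for 501Mel, H3A for Hermes 3A). RPL22L1 to RPL22 and RPS27L to RPS27 were higher in all Hermes 3A shSCR samples than in all 501Mel scramble samples.

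Genes that build ribosomes were read from a list of 40 assembly factors, chosen like the members with earlier results known. The background shares given above for each comparison hold for this and the next lists too. With shBRG1 in 501Mel cells 21 of 39 tested rose and 12 fell, with a median of 0.15, and in Hermes 3A cells 5 rose and 23 fell, with a median of -0.22. With shMITF 1 rose and 15 fell in 501Mel cells, with a median of -0.32, and 1 rose and 4 fell in Hermes 3A cells, with a median of -0.06. Against the other scramble group the 501Mel counts were 6 higher and 25 lower with a median of -0.60 for shBRG1 and 31 higher and 3 lower with a median of 0.61 for shMITF. Without shMITF replicate 1 those in Hermes 3A cells were 1 higher and 6 lower with a median of -0.16. NCL, nucleolin of the nucleolus, had 929, 1006 and 983 CPM with shSCR1 and 254, 276 and 276 CPM with shBRG1 in 501Mel cells, and in Hermes 3A cells 864, 833 and 883 CPM with shSCR and 633, 668 and 644 CPM with shBRG1. It fell in both without overlap, with log2 fold changes of -1.86 ± 0.05 (-3.20 ± 0.09 against shSCR2) and -0.41 ± 0.04. GAR1, of the complex that makes pseudouridine in rRNA, rose with shBRG1 in 501Mel cells by 1.87 ± 0.05, or by 0.78 ± 0.10 against shSCR2. RRP1B and NOB1, which process rRNA, fell with shBRG1 in both lines, with log2 fold changes of -0.97 ± 0.04 and -0.84 ± 0.07 in Hermes 3A and -1.33 ± 0.05 and -0.69 ± 0.06 in 501Mel cells against shSCR1. Against shSCR2 the latter were -1.93 ± 0.08 and -1.75 ± 0.09. With shMITF, WDR43 of early rRNA processing fell in 501Mel cells (259.8 and 261 CPM with shSCR2 and 151 and 109 CPM with shMITF), but was 0.16 ± 0.13 and not called against shSCR1. NOP56 of the box C/D particles fell in Hermes 3A cells (-0.64 ± 0.16) while WDR74 rose there (0.64 ± 0.18).

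Subunits and factors of RNA polymerase I, which makes rRNA, formed another list. Of 17 tested, 12 rose and 3 fell with shBRG1 in 501Mel cells (median 0.29), and 3 rose and 8 fell in Hermes 3A cells (median -0.10). With shMITF none rose and 4 fell in 501Mel cells, and none rose and 1 fell in Hermes 3A cells, where without shMITF replicate 1 none rose and 3 fell. With shSCR2 against shSCR1 13 were higher and 2 lower (median 0.54). Against the other scramble group the 501Mel counts were 5 higher and 7 lower with a median of -0.14 for shBRG1 and 11 higher and 4 lower with a median of 0.33 for shMITF. POLR1A, its largest subunit, differed by 0.13 ± 0.05 with shBRG1 in 501Mel cells against shSCR1, but was -0.65 against shSCR2, and fell to -0.48 ± 0.14 with shMITF in Hermes 3A cells.

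Other genes known for TOP mRNAs, such as those of elongation factors, were read from a further list. Of 19 tested, 9 rose and 4 fell with shBRG1 in 501Mel cells (median 0.18) and 1 rose and 10 fell in Hermes 3A cells (median -0.14). With shMITF none rose and 3 fell in 501Mel cells (median -0.18), and 1 rose and none fell in Hermes 3A cells (median 0.05), where without shMITF replicate 1 there were 1 higher and 3 lower with a median of -0.11. Of these 19, 16 were higher with shSCR2 than with shSCR1 and 1 lower (median 0.62). Against the other scramble group the 501Mel counts were 4 higher and 11 lower with a median of -0.24 for shBRG1 and 13 higher and 1 lower with a median of 0.40 for shMITF. EEF1A1, which brings tRNA to the ribosome, rose by 0.56 ± 0.05 with shBRG1 in 501Mel cells against shSCR1, was -0.086 ± 0.072 and not called against shSCR2, and fell to a log2 fold change of -0.30 ± 0.04 in Hermes 3A cells. NPM1, a nucleolar chaperone, fell to a log2 fold change of -1.02 ± 0.15 with shMITF in 501Mel cells, but was 0.48 ± 0.10 against shSCR1. SNHG1, a host gene of small nucleolar RNAs, rose by 1.71 ± 0.05 with shBRG1 there, or by 0.79 ± 0.07 against shSCR2.

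Growth regulators were mixed. Of 15 tested, 9 rose and 5 fell with shBRG1 in 501Mel cells, 5 rose and 5 fell in Hermes 3A cells, 2 rose and 2 fell with shMITF in 501Mel cells, and 1 rose and 2 fell in Hermes 3A cells. Without shMITF replicate 1 the last were 2 and 2. Between the scramble groups 8 were higher with shSCR2 and 2 lower (median 0.49). Against the other scramble group the 501Mel counts were 4 higher and 8 lower with a median of -0.43 for shBRG1 and 8 higher and 5 lower with a median of 0.44 for shMITF. MYC had 35.6, 50.6 and 47.6 CPM with shSCR1 and 82.6, 82.1 and 74.9 CPM with shBRG1 in 501Mel cells and rose by 0.84 ± 0.11, but was -0.62 against shSCR2. It fell to a log2 fold change of -0.78 ± 0.21 with shMITF there, which was 0.65 ± 0.21 against shSCR1, and of -0.25 ± 0.04 with shBRG1 in Hermes 3A cells. EIF4EBP2, which holds back the cap-binding protein, had 89.7, 88.9 and 87.0 CPM with shSCR1 and 19.9, 19.3 and 21.4 CPM with shBRG1 in 501Mel cells. In Hermes 3A cells EIF4E, the cap-binding protein, rose by 0.89 ± 0.06 and DEPTOR, an inhibitor of mTOR, by 0.95 ± 0.17 with shBRG1. With shMITF, MXD4, an antagonist of MYC, rose by 0.99 ± 0.15 in 501Mel cells but was -0.37 ± 0.07 against shSCR1, and RPTOR, a subunit of mTORC1, fell to a log2 fold change of -0.56 ± 0.14 in Hermes 3A cells. DEPTOR was higher by 1.03 ± 0.32 with shMITF in 501Mel cells, with an adjusted p = 0.0498 by edgeR's quasi-likelihood test, and by 0.13 ± 0.17, not called, against shSCR1.

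The 76 genes of the mitochondrial ribosome, whose proteins serve a separate ribosome, were read in the same way. With shBRG1 in 501Mel cells 19 rose and 41 fell with a median of -0.22, and in Hermes 3A cells 29 rose and 13 fell with a median of 0.06. With shMITF none rose and 7 fell in 501Mel cells, with a median of -0.09, and 6 rose and 2 fell in Hermes 3A cells, with a median of 0.24. Without shMITF replicate 1 the last were 9 higher and 5 lower with a median of 0.09. Against the other scramble group the 501Mel counts were 7 higher and 65 lower with a median of -0.83 for shBRG1 and 55 higher and 5 lower with a median of 0.40 for shMITF. Between the scramble groups 66 were higher with shSCR2 and 4 lower, with a median of 0.63. In the difference between the shBRG1 effects of the lines, 10 were more positive and 44 more negative in 501Mel cells, where the cytoplasmic genes had 43 and 19.

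Scaling moved the members together with the rest of the genes. Scaled by library sizes alone, shBRG1 in 501Mel cells against shSCR1 gave a member median of 0.42, beside 0.40 over all genes. In Hermes 3A cells the same scaling gave a member median of -0.07, beside 0.11 over all genes. In Hermes 3A cells the members thus lay below the median of all genes under both scalings. In 501Mel cells they lay near it against shSCR1 under both, but above it among protein-coding genes only and below it against shSCR2, as given above.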

How the data were processed

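Total RNA was depleted of rRNA with biotinylated probes, and a duplex-specific nuclease step lowered abundant cDNAs before sequencing. For each of the 19 samples the authors deposited a table of raw counts by Ensembl identifier, with no normalization. The submitters' processing notes name hg19, CASAVA 1.8, TopHat 1.4.1 and Bowtie 0.12.7. The counter, annotation release and strand setting are not given in the sources used here. Depth bounds the counting error of a share, and replicate spread that of a fold change.

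Symbols, gene types and positions came from GENCODE 29 by Ensembl identifier (41130 identifiers had a symbol), and start sequences from RefSeq (GRCh38.p14). The members and the gene lists were chosen with earlier results of these data known. Each comparison used its own groups in edgeR 4.0.16 (R 4.3.3) with filterByExpr, TMM factors, glmQLFit (robust) and glmQLFTest, and Benjamini-Hochberg adjustment over all genes tested. Called means an adjusted p under 0.05, with an absolute log2 fold change over 1 counted separately. Differences between lines came from an interaction term. Filters removed 2 members everywhere, RPL10L among them, and RPL3L in Hermes 3A cells. Some genes that met the naming rule are not reported here. Tests on simulated counts recovered 200 of 200 genes changed by a log2 of 2 in each comparison, with 5 to 10 false calls. Only well counted genes were changed, and all genes had 1 fixed spread. That spread was below the one estimated in 501Mel shMITF and Hermes 3A shMITF (coefficients of variation of 17.4% and 21.6%). Most member effects here were smaller than those simulated. These tests thus check the code and do not measure power or false calls for the members.

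Named were the 5 largest rises and falls among called members in each comparison, members with a role of their own, paralogs and parents, the targeted genes, and in the lists the 2 largest rises and falls with MYC, EEF1A1, NCL and POLR1A. Other genes named were chosen after their values were seen. Alternatives were DESeq2 1.42.0, library sizes or upper-quartile scaling, other filters, protein-coding genes only, all groups of a line in 1 fit, pooled or exchanged scramble groups, replicates left out, and the replicate number as a block.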

Additional observations from a re-analysis of the deposited data

Results flagged for a closer look

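The effect of shBRG1 differed between 501Mel and Hermes 3A cells for 62 of 85 members, 43 more positive and 19 more negative in 501Mel cells, by the interaction term of 1 edgeR fit with an adjusted p under 0.05. Of all 21697 genes tested, 24.8% were more positive and 33.1% more negative. Of the 62 members, 27 are given here, chosen for a role of their own, as a paralog or its parent, or for a large change with shBRG1. Values are the log2 fold change in 501Mel cells (against shSCR1) minus that in Hermes 3A cells, with the SE.

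More positive in 501Mel cells were RPL21 (1.21 ± 0.13), RPS26 (1.13 ± 0.14), RPLP0 (1.05 ± 0.07), RPL22L1 (1.03 ± 0.08), RPL9 (1.03 ± 0.09), RPL36A (0.99 ± 0.10), RPS27A (0.79 ± 0.07), RPL7 (0.76 ± 0.10), RPL10 (0.69 ± 0.06), RPSA (0.62 ± 0.06), RPS27 (0.54 ± 0.06) and RPLP1 (0.54 ± 0.07). Smaller differences of that sign were those of RPL11 (0.47 ± 0.06), RPS14 (0.45 ± 0.06), RPL22 (0.42 ± 0.07), RPL26 (0.37 ± 0.07), RPL7L1 (0.27 ± 0.06), RPS3A (0.27 ± 0.07), FAU (0.26 ± 0.07) and RPS19 (0.20 ± 0.07). RPL21, RPS26, RPL36A, RPL9, RPL7, RPL22, RPS27 and RPS3A share at least 90% of their stretches with other copies.

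More negative in 501Mel cells were RPL3 (-1.48 ± 0.07), RPL19 (-1.22 ± 0.07), RPL10A (-1.08 ± 0.06) and RPS24 (-0.83 ± 0.06), with smaller differences for RACK1 (-0.37 ± 0.07), RPL26L1 (-0.25 ± 0.11) and RPL5 (-0.24 ± 0.06).

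These differences rest on shSCR1 as the 501Mel control and were not tested with shSCR2. Between the scramble groups RPLP0, RPSA, RPS27A, RPS26 and RPL22L1 differed by 1.59 ± 0.08, 1.29 ± 0.07, 1.10 ± 0.07, 0.92 ± 0.12 and 0.97 ± 0.09, and RPL3, RPL19 and RPL10A by 0.23 ± 0.08, 0.02 ± 0.07 and 0.02 ± 0.06.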

How the results depend on the processing

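Limits: each comparison had 2 or 3 replicates a group and 1 construct a target, the 501Mel result depends on which scramble group is the control, and 15 members share most of their sequence with other copies. For single genes a turn of direction was counted only where the gene was called in the main fit or in the other. Changes of sign with no call in either fit are among the cases below that left the call as it was. Other settings left the call as it was in 1373 cases, ended a call in 96, made one in 34 and turned the direction in 62. Without 1 library the call was as before in 785 cases, ended in 62 and made in 11. The causes were not tested. The canonical set of 80 proteins and the counts with pseudogenes added moved no share or count of members by over 1.5 times.

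In the comparisons with 3 pairs the replicate numbers did not pair the samples (correlations of same-numbered samples between -0.05 and 0.05). In 501Mel shMITF against shSCR2, with fewer samples, that correlation was 0.13. Entered as a block, the replicate numbers left 37 members higher and 32 lower in 501Mel shBRG1, 0 and 4 in 501Mel shMITF, 4 and 59 in Hermes 3A shBRG1, and 1 and 0 in Hermes 3A shMITF. Between the scramble groups the block needed replicates 1 and 2 alone and gave 57 and 2, as did leaving out shSCR1 replicate 3 with no block. The difference of shBRG1 effects gave 42 and 20, and that of shMITF effects 0 and 0. With the block, 32.6% of all genes were higher and 31.7% lower between the scramble groups. The shares were 24.4% and 33.1% in the difference of shBRG1 effects, and 2.28% and 0.856% in that of shMITF effects.

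With library sizes in place of TMM factors the members higher, lower and their median were 61, 16 and 0.42 in 501Mel shBRG1 and 10, 35 and -0.0695 in Hermes 3A shBRG1. Between the scramble groups they were 52, 11 and 0.31. In 501Mel shMITF 1 was lower with a median of -0.0673, and in Hermes 3A shMITF 2 were higher. In the difference of shBRG1 effects 61 were higher and 10 lower. Of all genes 30.1% were higher and 40.0% lower between the scramble groups, and 7.81% were lower in 501Mel shMITF. In that difference 35.2% of all genes were higher and 24.7% lower. In Hermes 3A shMITF 11.4% of all genes were higher. All genes then had medians of 0.40, 0.11, 0.11, 0.14 and -0.17 in 501Mel shBRG1, 501Mel shMITF, Hermes 3A shBRG1, Hermes 3A shMITF and the scramble groups. Upper-quartile factors gave 17 lower and 0.35 in 501Mel shBRG1, 2 lower in 501Mel shMITF and a median of -0.13 in Hermes 3A shBRG1. Of all genes 30.3% were then lower in 501Mel shBRG1 and 8.95% in 501Mel shMITF. Protein-coding genes only gave a median of 0.23 with 48 higher and 21 lower in 501Mel shBRG1, and at least 10 counts in every sample gave 0.20 with 46 and 23 there, 3 lower in 501Mel shMITF and 12 lower in the difference of shBRG1 effects. DESeq2 gave 10 lower in 501Mel shMITF and 1 lower in Hermes 3A shMITF. All groups of a line in 1 fit gave 39 lower in 501Mel shMITF, 0 higher and 5 lower in Hermes 3A shBRG1, and 2 higher and 1 lower in Hermes 3A shMITF.

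With the other scramble group the counts and median were 8, 54 and -0.36 in 501Mel shBRG1 and 41, 13 and 0.20 in 501Mel shMITF. With both pooled they were 7, 18 and -0.0807 in 501Mel shBRG1, where 27.1% of all genes were higher and 24.3% lower. In 501Mel shMITF 0 were then lower, with a median of -0.0057.

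The genes listed next are named genes that were called in the main fit or in the other. Those that turned direction with library sizes were, in 501Mel shBRG1, RPLP2 (0.31), RPS6 (0.14), RPL13A (0.050), RPL26L1 (0.34) and RPL39 (0.13), and in Hermes 3A shBRG1 RPL11 (0.0053) and RPS14 (0.0020). With upper-quartile factors in 501Mel shBRG1 they were RPLP2 (0.24), RPS6 (0.075), RPL26L1 (0.27) and RPL39 (0.064). With pooled scramble groups they were RPSA (-0.081), RPL22L1 (-0.17), RPL22 (-0.081) and POLR1A (-0.19) in 501Mel shBRG1 and RPSA (0.20) in 501Mel shMITF. With the other scramble group they were RPLP0 (-0.66), RPLP1 (-0.21), RPSA (-0.75), FAU (-0.38), RPS27A (-0.47), RPL11 (-0.31), RPS14 (-0.43), RPS19 (-0.12), RPL7L1 (-0.35), RPL22L1 (-0.71), RPL39L (-0.34), RPS27L (-0.36), RPL7 (-0.20), RPL10 (-0.094), RPL22 (-0.48), RPL26 (-0.20), MYC (-0.62), EEF1A1 (-0.086) and POLR1A (-0.65) in 501Mel shBRG1, and RPL22L1 (0.23), RPL12 (0.14), RPS4X (0.31), RPSA (0.85), RPS2 (0.13), RPLP0 (1.31), RPLP1 (0.44), RACK1 (0.29), RPS27A (0.82), RPS6 (0.35), RPL5 (0.41), RPL11 (0.52), RPS14 (0.61), RPS19 (0.25), RPL13A (0.50), RPL26L1 (0.63), RPL7 (0.54), RPL10 (0.29), RPL22 (0.61), SMARCA4 (0.67), MXD4 (-0.37), NPM1 (0.48), WDR43 (0.16), MYC (0.65), EEF1A1 (0.49), NCL (0.66) and POLR1A (0.69) in 501Mel shMITF.

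Of counts on protein-coding genes only, the members took 2.76%, 2.98% and 2.92% with shSCR1, 3.40%, 3.44% and 3.23% with shBRG1, 3.42% and 3.36% with shSCR2 and 3.24% and 3.18% with shMITF in 501Mel cells. They took 3.04%, 3.11% and 3.05% with shSCR and 2.96% in shBRG1 replicate 2 in Hermes 3A cells.

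Leaving out 1 library in turn gave 34 to 39 higher, 29 to 36 lower and medians of 0.03 to 0.09 in 501Mel shBRG1, and 0 higher, 1 to 8 lower and -0.20 to -0.16 in 501Mel shMITF. It gave 2 to 4 higher, 50 to 62 lower and -0.20 to -0.15 in Hermes 3A shBRG1, and 0 to 2 higher, 0 to 11 lower and -0.16 to 0.19 in Hermes 3A shMITF. The scramble groups gave 56 to 69 higher, 2 to 9 lower and 0.36 to 0.47. The difference of shBRG1 effects gave 35 to 48 and 14 to 23, and that of shMITF effects 0 in both directions. In 501Mel shMITF the lower count was 3 and 1 without shSCR2 replicates 1 and 2, and 8 and 1 without shMITF replicates 1 and 2. In Hermes 3A shBRG1 2 were higher without shSCR replicate 1. In Hermes 3A shMITF none was higher without any 1 shSCR replicate, 11 were lower without shMITF replicate 1, and 2 were higher and 1 lower without shMITF replicate 2. Between the scramble groups 2 were lower without shSCR1 replicate 2 or 3 and 3 without shSCR2 replicate 1.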
